A study of Caenorhabditis elegans with 12 samples.

Results

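The 5 genes described here carry out fatty acid synthesis (pod-2, fasn-1), acylation of glycerolipids (acl-1) and the methylation steps that lead to phosphatidylcholine (sams-1, pmt-2). They were taken by gene name from the 7553 genes listed for acetylation of histone H4 at lysine 5 (H4K5ac) or lysine 8 (H4K8ac). All 5 are among the 5632 genes named in the H4K5ac table, and 2 of them, fasn-1 and sams-1, are also among the 5671 genes of the H4K8ac table. The marks were profiled by chromatin immunoprecipitation and sequencing in adult wild-type Caenorhabditis elegans of the Bristol N2 strain, kept at 20 °C with Escherichia coli OP50 as food. There were 4 groups of 3 replicates: the precipitate (IP) of each mark and the input chromatin of each mark. No group carried a mutation or received a treatment, and every sample held chromatin of whole animals, so fewer cells with a mark and less of the mark per cell cannot be told apart. The series title ties histone deacetylation genes to lipid metabolism through these residues. The labels do not say whether replicates came from separate cultures, so a p-value here covers only the variation among the libraries at hand, and this may be technical variation.

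Acetyl-CoA is the common substrate of histone acetylation and fat synthesis. Acetyl-CoA carboxylase turns it into malonyl-CoA, which fatty acid synthase extends into long-chain fatty acids that acyltransferases then attach to a glycerol backbone. S-adenosylmethionine is the methyl donor for many reactions, and in C. elegans phosphoethanolamine is methylated step by step to phosphocholine by the enzymes PMT-1 and PMT-2. Loss of sams-1 in worms lowers phosphatidylcholine and raises fat stores through SBP-1, the worm homolog of the sterol regulatory element binding protein. Acetylated lysines of histone H4 are bound by bromodomain proteins and are usually found over active genes.

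The deposited value is 1 estimated read count per gene and library. Total counts ranged from 5460429 to 9156392 per library. The counts were almost unrelated to region length (Spearman -0.51 and -0.50 with the number of annotated genes around the start site, against 0.072 and 0.055 with length, for H4K5ac and H4K8ac inputs, across genes). No source used here gives the window in which reads were counted, and a stretch of 2 kb to either side of the start site is used below as its stand-in. Levels are given in CPM, the read count scaled to library size and by TMM, and folds as log2 of IP over input with the standard error (SE) of edgeR's quasi-likelihood fit. The lists hold regions picked for enrichment, so "higher" and "lower" are against the middle of these lists and say nothing of the rest of the genome. For H4K5ac 1811 genes (32.2%) were higher and 1659 (29.5%) lower at an adjusted p of 0.05, so that 61.6% were called and 52.2% of the calls were higher. Scaling by total count gave 1349 higher and 2627 lower, so that 33.9% of the calls were higher. With the least enriched 10% of genes as the reference, 3619 genes were called and every call was higher. For H4K8ac 1768 (31.2%) were higher and 1908 (33.6%) lower, so that 64.8% were called and 48.1% of the calls were higher. There total count scaling gave 1454 higher and 2497 lower, so that 36.8% of the calls were higher. The least enriched genes as reference gave 4001 higher and 0 lower. These scalings moved the median log2 fold of all genes from -0.017 to -0.15 and 0.33 for H4K5ac, and from -0.036 to -0.10 and 0.27 for H4K8ac.

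The listed regions covered the 5 genes in different ways. The H4K5ac region at fasn-1 spanned the whole gene (chromosome I, gene 8975366 to 8986540, minus strand; region 8974601 to 8987799 in WBcel235). It reached past both ends of the gene and was annotated by the authors to exon 7 of 11. The H4K8ac region there ran from 8975601 to 8987799 and covered 97.9% of the gene. At sams-1 (chromosome X, gene 11965962 to 11969893, plus strand) the H4K5ac region lay at 11965601 to 11967799 and the H4K8ac region at 11965801 to 11967799. Each covered the start site and the same 46.7% of the gene, and neither reached its 3′ part. The authors annotated each to exon 3 of 4. The H4K8ac regions lay wholly within the H4K5ac regions at these 2 genes, and took up 92.4% of the H4K5ac region at fasn-1 and 90.9% at sams-1.

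At pod-2 (chromosome II, gene 1136785 to 1152701, plus strand) the H4K5ac region at 1140801 to 1155599 left out the beginning of the gene. It started 4016 bases into the gene, covered 74.8% of it, ran 2898 bases past its end and also overlapped W09B6.4. The authors tied it to a transcript whose start lies 7150 bases inside the gene and annotated it to intron 5 of 7. Whether the count listed for pod-2 was taken around this internal start was not tested. At pmt-2 (chromosome V, gene 4628580 to 4635263, plus strand) there were 2 H4K5ac regions. The shorter, at 4628401 to 4629199, was annotated to the promoter and overlapped the gene sumv-2 as well. The longer, at 4630201 to 4637399, was annotated to intron 4 of 5 and reached 2136 bases past the gene. Together they covered 85.0% of pmt-2. At acl-1 (chromosome X, gene 15849885 to 15852001, plus strand) a H4K5ac region at 15849401 to 15851599 covered the start site and 81.0% of the gene, and was annotated to intron 2 of 4.

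**Figure D1:**
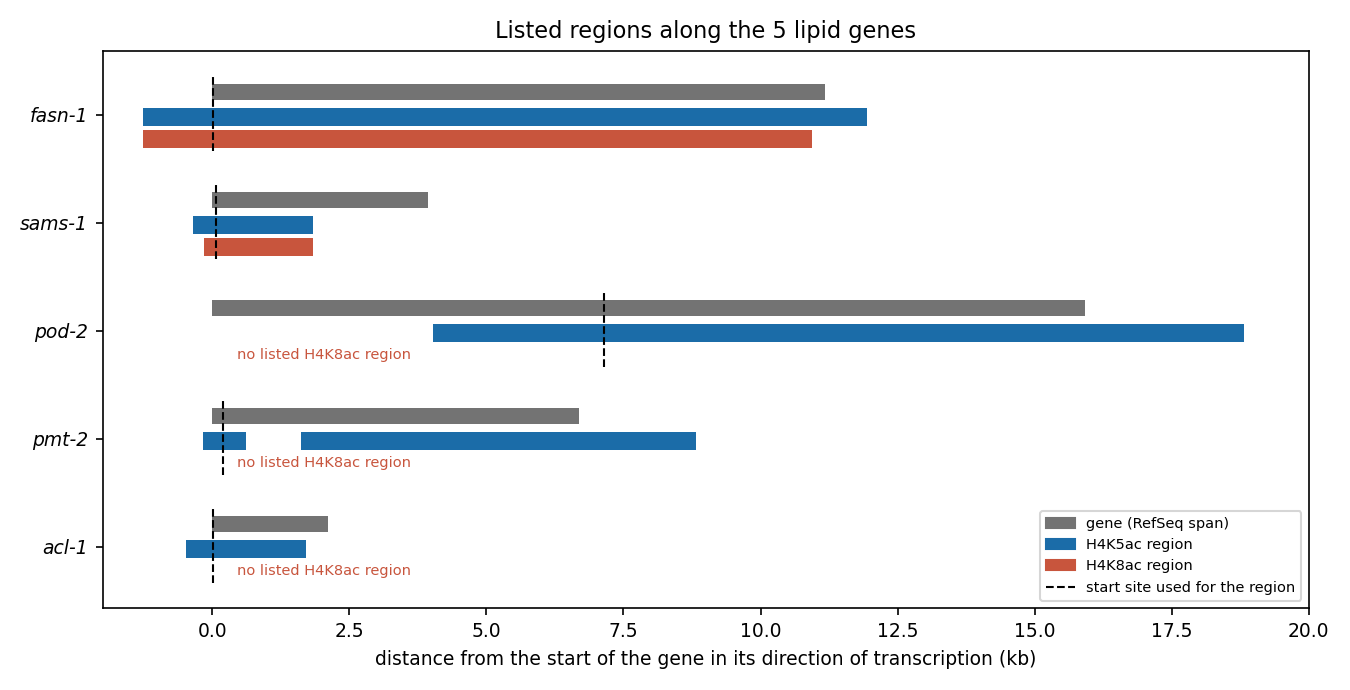
Listed regions of H4K5ac (blue) and H4K8ac (red) along the 5 genes, drawn in the direction of transcription with the distance from the gene's RefSeq start in kb on the horizontal axis. Grey bars are the genes and dashed lines the start sites used by the authors, which lies 7150 bases inside pod-2; pod-2, pmt-2 and acl-1 have no listed H4K8ac region.

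No listed H4K8ac region overlapped pod-2, pmt-2 or acl-1, but the numbering of the regions shows gaps at all 3 places. Region numbers followed genome order in both lists, and 2881 of the 9278 H4K8ac numbers (31.1%) were absent from the list used here. Around pmt-2 the H4K8ac list went from region 3270 at sumv-2, which ended 4.18 kb before the gene, to region 3273 at F41F3.8, which began 12.5 kb after it. The 2 absent numbers fell in a stretch of 23.4 kb where the H4K5ac list held exactly the 2 regions of pmt-2. Around pod-2 it went from 6308 at taf-6.1, 1.18 kb before the gene, to 6314 at lin-42, 80.7 kb after it. In the same stretch the H4K5ac list held the pod-2 region and lacked 4 numbers. Around acl-1 it went from 9106 at Y7A5A.15, 78.3 kb before the gene, to 9112 at F53H4.2, 3.4 kb after it. Absent numbers stood between 24.5% of all neighbouring H4K8ac regions. They stood at 454 of the 612 genes named in the H4K5ac table with no listed H4K8ac region (74.2%). The first share counts pairs of regions and the second counts genes. A gap can hold several genes and long gaps weigh more in the second share, so these shares are not directly comparable. The 3 genes are therefore not shown to lack H4K8ac, and their H4K8ac level was not analysed here. No number was absent around fasn-1 and sams-1 in either list. In the list order, which follows IP over input, the H4K5ac regions of pmt-2 stood at ranks 6353 and 6354 of 6432. The H4K5ac regions of fasn-1, acl-1, sams-1 and pod-2 stood at 5466, 4519, 4488 and 4076. In the H4K8ac list fasn-1 stood at 4997 and sams-1 at 5252 of 6397.

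H4K5ac was lower over input than at the typical listed gene in 4 of the 5 genes (fasn-1, acl-1, sams-1 and pmt-2), and pod-2 did not pass the test. Of all genes in the table, 29.5% were called lower. Scaled to the least enriched genes, none of the 5 was called, and fasn-1, acl-1, sams-1 and pod-2 turned to values above 0, though all 5 stayed below the median of all genes under that scaling (0.33).

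For fatty acid synthase, fasn-1, the H4K5ac IPs had 168, 180 and 199 CPM and the inputs 205, 235 and 226 CPM. All 3 IPs lay below all 3 inputs, as they did in 33.1% of the genes in the table. This gave a log2 fold of -0.28 ± 0.08 (SE, n = 3 per group, edgeR adjusted p = 0.0104), which was -0.24 with an adjusted p of 0.0579 without input replicate 2.

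For acetyl-CoA carboxylase, pod-2, the IPs had 198, 152 and 150 CPM (replicates 1, 2 and 3) and the inputs 163, 190 and 206 CPM. IP replicate 1 was above 2 of the inputs and the groups overlapped. The log2 fold was -0.16 ± 0.11 (edgeR adjusted p = 0.236, 95% interval from -0.38 to 0.064). Without IP replicate 1 it was -0.31 with an adjusted p of 0.00125, so that library decides whether pod-2 is called. The paired log2 ratio was 0.28 in replicate 1, -0.32 in replicate 2 and -0.46 in replicate 3, with an SD of 0.39 against 0.033 to 0.13 for the other 4 genes. Total count scaling also moved pod-2 past the threshold (-0.30, adjusted p = 0.0219).

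The acl-1 gene belongs to the family of acylglycerol-phosphate acyltransferases, which make phosphatidic acid. It had 190, 177 and 177 CPM in the IPs and 201, 223 and 200 CPM in the inputs. The groups did not overlap, with IP replicate 1 nearest to the inputs. Its log2 fold was -0.20 ± 0.07 (edgeR adjusted p = 0.0268). This call was lost without IP replicate 2 (-0.19, adjusted p = 0.0885), without IP replicate 3 (-0.18, 0.0671) and without input replicate 2 (-0.14, 0.170).

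For sams-1, the gene of an S-adenosylmethionine synthetase, the H4K5ac IPs had 174, 189 and 181 CPM and the inputs 203, 214 and 203 CPM. All IPs lay below all inputs. Log2 ratios to the input of the same number were -0.23, -0.18 and -0.17, the closest together of the 5 genes. This rank rests on a pairing that does not tell replicates 2 and 3 apart. Against the mean input the ratios were -0.25, -0.13 and -0.19. Those of pmt-2 then lay closer together (-0.34, -0.36 and -0.42). The fitted log2 fold of sams-1 was -0.19 ± 0.07 (edgeR adjusted p = 0.0231). It fell short of the threshold without input replicate 2 (-0.16, adjusted p = 0.121) and without input replicate 3 (-0.21, 0.0554).

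The phosphoethanolamine methyltransferase gene pmt-2 had the lowest H4K5ac fold of the 5. Its IPs had 164, 162 and 156 CPM and its inputs 195, 213 and 216 CPM, with no overlap. The log2 fold was -0.37 ± 0.07 (edgeR adjusted p = 0.000742), which put it at the 0.497th percentile of the table, near the lowest fold of any listed gene (-0.39). The call held in all 6 fits that left out a library, with folds from -0.42 to -0.35. The stretch around its start site is shared with sumv-2, which was higher (0.53 ± 0.13, edgeR adjusted p = 0.0044), and the part of read sharing between these genes in the pmt-2 value was not tested.

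**Figure D2:**
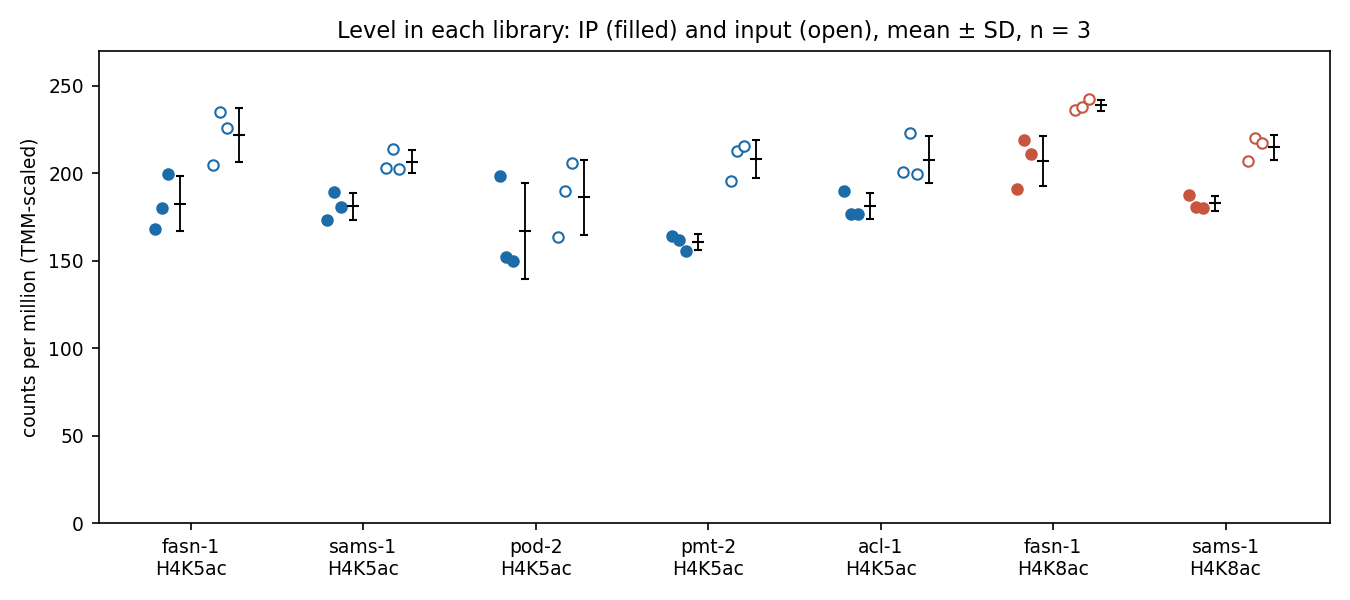
Level in each library in CPM (vertical axis, from 0) for each gene and mark, with IPs as filled and inputs as open points and the mean ± SD beside them (n = 3). IPs lie below inputs without overlap everywhere except at pod-2, where IP replicate 1 (198 CPM) stands among the inputs.

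In order of H4K5ac fold the genes were pmt-2, fasn-1, acl-1, sams-1 and pod-2. Log2 ratios to the input of the same number overlapped for each neighbouring pair in this order. Those of pmt-2 (-0.47 to -0.25) and sams-1 (-0.23 to -0.17) did not overlap. Against the mean input, pmt-2 (-0.42 to -0.34) lay apart from acl-1 (-0.23 to -0.13) and from sams-1 (-0.25 to -0.13). Overlap of 3 ratios is no test, and differences between these genes, which share the same libraries, were not tested.

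**Figure D3:**
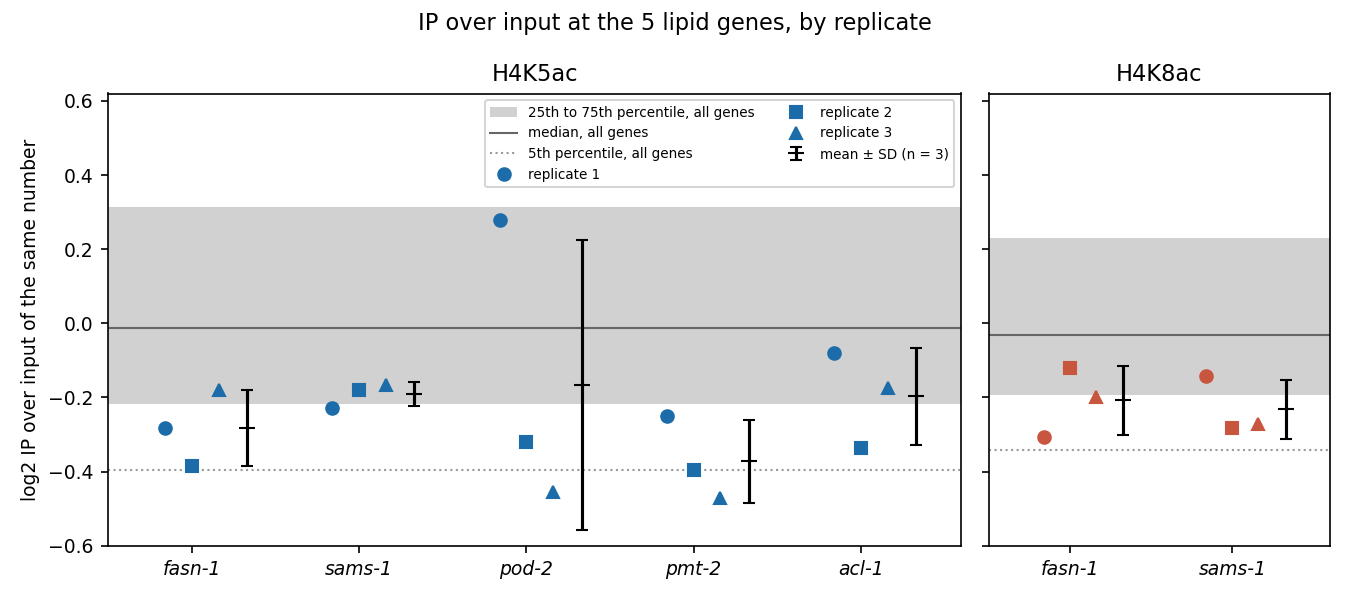
Log2 of IP over the input of the same replicate number (vertical axis) for each gene, by replicate, with the mean ± SD (n = 3), over the 25th to 75th percentile (band), median (line) and 5th percentile (dotted) of all listed genes, each averaged over the 3 replicates. At pod-2 replicate 1 (0.28) stands apart from replicates 2 and 3 (-0.32 and -0.46). For H4K8ac the numbers do not pair the samples, so its points and SDs are matches by number only.

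H4K8ac was also lower over input than at the typical listed gene at fasn-1 and sams-1, a direction that turned when scaled to the least enriched genes (0.095 and 0.072, neither called). Of all genes in the H4K8ac table, 33.6% were called lower. At fasn-1 the IPs had 191, 219 and 211 CPM and the inputs 236, 238 and 242 CPM. The log2 fold was -0.21 ± 0.06 (SE, n = 3 per group, edgeR adjusted p = 0.0084), and it moved to -0.14 (adjusted p = 0.0422) without IP replicate 1, the lowest of the 3 IPs. At sams-1 the IPs had 188, 181 and 180 CPM and the inputs 207, 220 and 217 CPM. The log2 fold was -0.23 ± 0.05 (edgeR adjusted p = 0.00159), and the call held in all 6 fits that left out a library. IPs and inputs did not overlap at either gene, as in 36.5% of the table with the IPs below.

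The marks did not differ detectably at the 2 genes that can be compared. Over the 3750 genes in both tables, the H4K5ac fold minus the H4K8ac fold was -0.093 ± 0.11 at fasn-1 (SE, edgeR adjusted p = 0.678, interval -0.30 to 0.12). At sams-1 it was 0.024 ± 0.08 (edgeR adjusted p = 0.903, interval -0.13 to 0.18), a sign that turned under total count scaling. These intervals still allow differences of about the size of the folds themselves. In edgeR's quasi-likelihood test 0 of the 3750 genes (0.0%) passed, 549 (14.6%) had an unadjusted p under 0.05, and DESeq2 called 41. The inputs of the marks, compared as background, gave log2 differences of -0.081 ± 0.08 at fasn-1 and -0.031 ± 0.06 at sams-1. There edgeR called 0 genes (0.0%), as did DESeq2, with 180 (4.8%) at an unadjusted p under 0.05.

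Region length and the cover of the start site went with the fold across the table, and the 5 genes stood differently against them. The classes below were chosen after the values were seen, and length comes from the same IPs as the fold, so this is a description. The Spearman correlation of log2 fold with the length of a gene's longest region was 0.59 for H4K5ac and 0.55 for H4K8ac, across genes that share the same libraries. Genes with a H4K5ac region of 10 kb or more had a median log2 fold of 0.39 (937 genes, 70.4% called higher and 4.6% lower). Those with a region under 2.5 kb had a median of -0.23 (1495 genes, 7.6% called higher and 897 genes called lower). The fasn-1 region was 13.2 kb long and the pod-2 region 14.8 kb, longer than 91.1% and 93.5% of the list. Among the genes with such long regions fasn-1 stood at the 2.5th percentile and pod-2 at the 5.7th. For H4K8ac the fasn-1 region was 12.2 kb long, and the gene stood at the 4.0th percentile of 1104 genes with long regions (median 0.29). The sams-1 and acl-1 genes, each under a H4K5ac region of 2.2 kb, stood at percentiles 60.3 and 58.5 of genes with short regions. For H4K8ac sams-1 stood lower, at percentile 35.4 of the 1278 genes with short regions (median -0.18, 59.2% called lower). The pmt-2 fold was at percentile 0.2 of the 3200 genes with a longest region of 2.5 to 10 kb (median 0.019).

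H4K5ac regions covered the whole stretch of 2 kb to either side of the listed start of pod-2 and 82.0% of that of fasn-1. They covered 55.0% at sams-1 and at acl-1 and 34.1% at pmt-2. Of the 1394 genes with less than 60% of this stretch covered, 69.2% were called lower (median -0.26), and pmt-2 stood at the 1.6th percentile of them, acl-1 at the 67.0th and sams-1 at the 68.9th. Of the 2498 genes with at least 90% covered, 6.9% were called lower (median 0.27), and pod-2 stood at the 9.4th percentile. Between these classes, with 60 to 90% covered, 29.9% of 1740 genes were called lower (median -0.088). There fasn-1 stood at the 12.4th percentile, less far down than among genes with long regions. For H4K8ac it stood at the 24.0th percentile of 1801 genes in that class (median -0.094, 39.9% called lower). The sams-1 and acl-1 genes also lie on the X chromosome, where 41.1% of 919 listed genes were called lower for H4K5ac (median -0.12). They stood at the 38.8th and 37.6th percentile of that chromosome, and for H4K8ac sams-1 stood at the 26.2th of 831 genes on it (median -0.14, 52.1% lower). For H4K5ac fasn-1 stood at the 9.7th percentile of chromosome I (median 0.071) and pmt-2 at the 0.9th of chromosome V (median -0.067). The pod-2 gene stood at the 35.4th percentile of chromosome II for H4K5ac (median -0.012). For H4K8ac fasn-1 stood at the 17.7th of chromosome I (median 0.020).

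**Figure D4:**
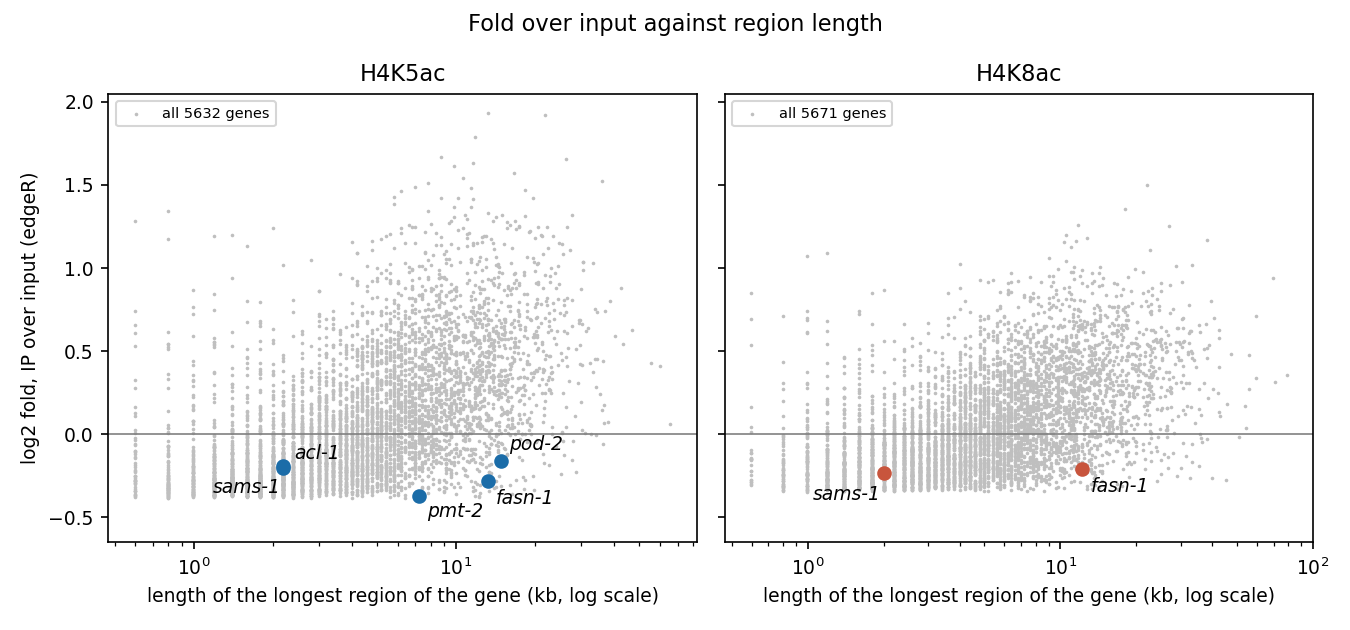
Log2 fold of IP over input from edgeR (vertical axis) against the length of the gene's longest region in kb (horizontal axis, log scale) for each mark, with all listed genes in grey and the genes described here in colour. The fasn-1 and pod-2 genes lie under the bulk of genes with regions of 10 kb or more (median 0.39 for H4K5ac), and sams-1 and acl-1 lie within the bulk of genes with short regions.

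Listed neighbours of the 5 genes were called in either direction or not at all. The Mediator subunit gene mdt-31, whose region lies 1.77 kb past the end of fasn-1, was higher for H4K5ac (0.32 ± 0.07, edgeR adjusted p = 0.00301) and for H4K8ac (0.32 ± 0.07, 0.00111). On the other side F32H2.7 was not called for either mark (-0.17 and -0.029). The RNA interference gene eri-3, just before pod-2, was higher for H4K5ac (0.68 ± 0.13, edgeR adjusted p = 0.00117), and the period homolog gene lin-42, the next listed gene after pod-2, was lower (-0.32 ± 0.09, 0.0112) but not called for H4K8ac (0.16 ± 0.08). Before sams-1 the histone demethylase gene lsd-1 was higher for H4K5ac (0.32 ± 0.07, edgeR adjusted p = 0.00309), but not called for H4K8ac (0.074 ± 0.05), and C49F5.6 after it was lower for H4K5ac (-0.27 ± 0.08, 0.0119). Beside acl-1, F53H4.2 was lower for H4K5ac (-0.36 ± 0.07) and for H4K8ac (-0.30 ± 0.06), and F59F4.2 was not called (0.058 ± 0.09). Farther from acl-1, Y7A5A.15 was not called for either mark (-0.13 and -0.031). Before pmt-2, sumv-2 was higher for H4K8ac too (0.27 ± 0.06, edgeR adjusted p = 0.00164). After pmt-2, F41F3.3 was lower for H4K5ac (-0.24 ± 0.06, edgeR adjusted p = 0.0065) and F41F3.8 for H4K8ac (-0.27 ± 0.06, 0.00104). For H4K8ac, taf-6.1 before pod-2 was higher (0.77 ± 0.09) and linc-15 after sams-1 lower (-0.29 ± 0.06). Differences between a gene and its neighbours were not tested.

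Other genes of the same pathways were split in direction. Of the 5 pathway lists, with 67 genes in the RefSeq table, 28 genes other than the 5 described were tested for H4K5ac, and 10 were higher and 7 lower, with a median of 0.068 against -0.017 for all genes. Over all genes 32.2% were higher and 29.5% lower. With the 5 genes included there were 33, of which 10 were higher and 11 lower (median -0.05). For these 33, total count scaling gave 5 higher and 17 lower, and scaling to the least enriched genes 21 higher and 0 lower. The number called fell to 9 without H4K5ac input replicate 2 and to 12 without input replicate 3. For H4K8ac 28 genes other than fasn-1 and sams-1 were tested, and 11 were higher and 5 lower (median 0.0026 against -0.036), where 31.2% and 33.6% of all genes were. With fasn-1 and sams-1 included there were 30, of which 11 were higher and 7 lower, with 8 and 10 under total count scaling and 24 and 0 when scaled to the least enriched genes.

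Of the genes of malonyl-CoA and fatty acid synthesis, 3 of 6 were higher for H4K5ac and only fasn-1 was lower. Over all genes 32.2% were higher and 29.5% lower for H4K5ac, and 31.2% and 33.6% for H4K8ac. The malonyl-CoA decarboxylase gene mlcd-1, whose product removes the substrate of fatty acid synthase, had the highest fold (0.73 ± 0.09, edgeR adjusted p = 7.14e-05; 0.46 ± 0.09 for H4K8ac). The ATP citrate lyase genes acly-1 (0.21 ± 0.08) and acly-2 (0.29 ± 0.09), which supply acetyl-CoA, were also higher. For H4K8ac 3 of 5 were higher, led by acly-2 (0.55 ± 0.06, edgeR adjusted p = 6.14e-06), with acly-1 at -0.0022 ± 0.05.

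In the methionine and S-adenosylmethionine cycle 3 of 8 genes were higher and 3 lower for H4K5ac (median -0.039). The shares over all genes were 32.2% and 29.5% for H4K5ac, and 31.2% and 33.6% for H4K8ac. The highest was mtrr-1, the gene of methionine synthase reductase (0.70 ± 0.08, edgeR adjusted p = 3.15e-05). The lowest was cth-1, a cystathionine gamma-lyase gene (-0.37 ± 0.09, 0.00443), followed by sams-5 (-0.36 ± 0.08), a second gene of the synthetase family, and then sams-1. For H4K8ac 4 of 9 were higher, led by the serine hydroxymethyltransferase gene mel-32 (0.94 ± 0.06, edgeR adjusted p = 7.80e-07), and sams-1 was the only gene called lower. The paralogs of sams-1 are alike in sequence and counts between them may be split.

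Genes of phosphatidylcholine and phosphatidylethanolamine synthesis were called lower or not at all, but with the least enriched genes as reference no gene of the 5 lists was called lower. For H4K5ac 4 of 8 were lower and none higher (median -0.16), where 29.5% of all genes were lower. These were pmt-2, without which 3 of 7 were lower, the phosphatidylserine synthase gene pssy-1 (-0.28 ± 0.10, edgeR adjusted p = 0.0232), the gene pcyt-1, whose enzyme makes CDP-choline, (-0.26 ± 0.08, 0.0174) and the choline kinase gene ckb-2 (-0.20 ± 0.07, 0.0319). For H4K8ac 3 of 5 were lower and none higher (median -0.15), where 33.6% of all genes were lower, from pcyt-1 (-0.22 ± 0.05, edgeR adjusted p = 0.0031) to ckb-2 (-0.15 ± 0.06, 0.0498). With so few genes, a difference between this list and the others was not tested. Regions overlapped this list least of the 5. Of its 18 genes, 10 were overlapped by H4K5ac and 10 by H4K8ac regions (55.6% for each mark), near the 53.3% and 58.1% of all protein-coding genes. The H4K5ac count includes pmt-2, which was taken by name from the H4K5ac table. No listed region of either mark overlapped pmt-1, whose enzyme acts before PMT-2, and with numbers absent from the lists this does not show that the marks are lacking there.

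Among the glycerolipid acyltransferase and lipin genes 2 of 7 were higher for H4K5ac, led by acl-14 (0.47 ± 0.09, edgeR adjusted p = 0.00105), and 2 were lower, acl-12 (-0.25 ± 0.08, 0.0235) and acl-1. These counts are near the shares over all genes, 32.2% higher and 29.5% lower. For H4K8ac those shares were 31.2% and 33.6%. For H4K8ac 3 of 7 were higher, led by acl-9 (0.32 ± 0.06, edgeR adjusted p = 0.000495), and acl-12 was lower (-0.25 ± 0.05, 0.0012). In the SBP-1 axis 2 of 4 genes were higher and 1 lower for H4K5ac, and 1 of 4 higher and 1 lower for H4K8ac. The gene sbp-1 itself was lower for H4K5ac (-0.24 ± 0.08, edgeR adjusted p = 0.0182) and for H4K8ac (-0.26 ± 0.06, 0.00124). The nuclear receptor gene nhr-49, which controls fatty acid desaturation and oxidation, was higher for H4K5ac (0.46 ± 0.09, edgeR adjusted p = 0.00104) and for H4K8ac (0.25 ± 0.09, 0.0188). The gene nhr-80 was higher for H4K5ac (0.21 ± 0.07, edgeR adjusted p = 0.0284) but not called for H4K8ac (-0.00070). For gbf-1 there was no call for either mark (0.086 and -0.084). H4K5ac regions overlapped all 10 genes of malonyl-CoA and fatty acid synthesis, all 15 of the methionine cycle, 17 of 18 acyltransferase and lipin genes and all 7 of the SBP-1 axis. H4K8ac regions overlapped 9, 14, 15 and 7 of them. These counts include fasn-1, pod-2, sams-1 and acl-1, which were taken by name from the H4K5ac table. The genes without an H4K8ac region include pod-2 and acl-1, which were listed for H4K5ac alone, so the counts do not compare the marks on equal terms. The shares over all protein-coding genes were 53.3% for H4K5ac and 58.1% for H4K8ac.

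**Figure D5:**
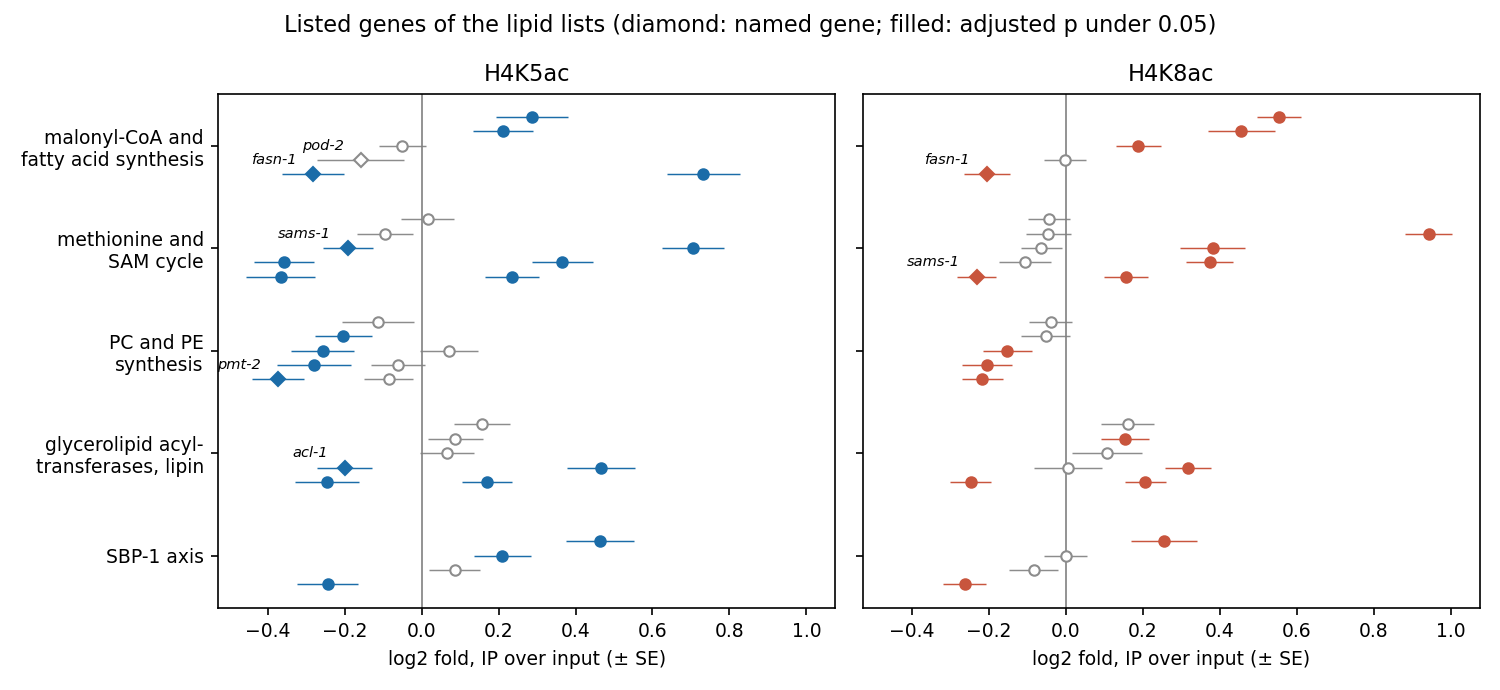
Log2 fold of IP over input (horizontal axis, ± SE) of every listed gene of the 5 pathway lists, for H4K5ac (left) and H4K8ac (right), with filled points for an adjusted p under 0.05 and diamonds for the genes described here. In phosphatidylcholine (PC) and phosphatidylethanolamine (PE) synthesis all filled points lie below 0, whereas the other lists hold filled points on either side; with the least enriched genes as reference, 0 genes of these lists were called lower.

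The genes most like each of the 5 in their levels were found by Pearson correlation of log2(CPM + 1) over the 6 libraries of a table, which share the contrast of IP and input. For H4K5ac they were F46C5.12 and T23F2.5 for fasn-1 (r = 0.999 and 0.997), F37B12.13 and mig-13 for sams-1 (0.990 and 0.988), and C04E7.3 and C54E10.6 for pod-2 (0.996 and 0.978). They were bris-1 and Y51H7C.28 for pmt-2 (0.998 and 0.996) and ZK1073.1 and C06G1.10 for acl-1 (0.976 and 0.972). For H4K8ac they were W05H12.1 and wago-10 for fasn-1 (0.999 and 0.998) and mir-5552 and C15C7.5 for sams-1 (0.999 and 0.998). None of these is on the pathway lists. High values are common over so few libraries: the 99th percentile of all genes lay between 0.861 and 0.986.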

How the data were processed

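Per the labels, chromatin of whole N2 adults was sheared to 0.2 to 1 kb and precipitated with antibodies against H4K5ac or H4K8ac. MACS2 2.1.0, Bowtie 1.1.2, Trimmomatic 0.33 and bcl2fastq 2.17 appear in the submitters' processing notes without roles. The authors deposited, for each mark, 1 region list with estimated counts per gene, not normalized (73.5% and 80.8% of values not whole). The counter, and whether regions were called on pooled samples, are not given in the sources used here. The submitters' processing notes name WBcel235 and the human build hg38, and 84.0% and 84.9% of the start sites implied by the region lists lay near an end of the RefSeq gene in WBcel235, so coordinates are given in that build.

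Estimated counts were rounded and tested over each mark's own table with edgeR 4.0.16 (R 4.3.3; quasi-likelihood, TMM, Benjamini-Hochberg, threshold 0.05). The filter on low counts removed 0 genes. The difference between marks and the inputs were fitted over 12 samples and 3750 common genes. DESeq2 1.42.0 was an alternative. The fits were tested on simulated data.

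Replicates differed beyond counting noise (chi-square per degree of freedom 1.28 to 22.9). Same-numbered H4K5ac IPs and inputs deviated together across genes (correlations 0.278, 0.11 and 0.226), so their numbers were taken as pairing the samples, from the data alone. IP 2 with input 3 (0.145) and IP 3 with input 2 (0.152) were as high, so replicates 2 and 3 were not told apart. Same-numbered H4K8ac samples did not deviate together (-0.239, -0.10 and 0.067). The genes described, the lists and the tests were chosen with earlier results of these data known. Named were the 5 genes, each list's highest and lowest called gene, listed neighbours and the 2 most correlated genes; sams-5, acly-1, pssy-1 and a few other list genes were added after their values were seen. Genes around a start site were counted by their span, as the table gives no strand.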

Additional observations from a re-analysis of the deposited data

How the results depend on the processing

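Scaling to the least enriched genes turned the H4K5ac log2 folds of fasn-1 (0.058), sams-1 (0.15), pod-2 (0.19) and acl-1 (0.15) and the H4K8ac folds of fasn-1 (0.095) and sams-1 (0.072), and left pmt-2 at -0.028, none of them past the threshold. That scaling sets the least enriched genes to 0 by construction. Total count scaling took pod-2 past the threshold (-0.30) and turned the difference between marks at sams-1 to -0.0096, as did leaving out H4K5ac IP replicate 2 (-0.0035). DESeq2 called 41 genes for the difference between marks where edgeR called 0, and the fit of 12 samples called 2051 of 3750 genes for H4K8ac against 3676 of 5671. The cause of these changes was not tested. Leaving out 1 library at a time, the H4K5ac folds ranged from -0.35 to -0.23 for fasn-1, -0.23 to -0.16 for sams-1, -0.31 to -0.084 for pod-2, -0.42 to -0.35 for pmt-2 and -0.24 to -0.14 for acl-1. H4K8ac folds ranged from -0.22 to -0.14 for fasn-1 and -0.26 to -0.19 for sams-1. Differences between marks ranged from -0.16 to -0.032 for fasn-1 and -0.0035 to 0.059 for sams-1. Calls ranged from 2649 to 3593 for H4K5ac, 2925 to 4192 for H4K8ac, and 0 to 193 for the difference, highest without H4K5ac IP replicate 3 and 7 without IP replicate 1. On the pathway lists they ranged from 9 to 20 for H4K5ac and 13 to 22 for H4K8ac. With the replicate block the H4K5ac folds were -0.28 (fasn-1), -0.19 (sams-1), -0.17 (pod-2), -0.37 (pmt-2) and -0.20 (acl-1), with 3734 genes called, and no call among the 5 genes changed. For H4K8ac, where the numbers do not pair the samples, the replicate block gave -0.21 (fasn-1) and -0.23 (sams-1) and 3572 calls. The contrast of the marks became -0.092 (fasn-1) and 0.024 (sams-1) with the block, and 0 genes were called. The inputs of different marks share no block, so no such fit was run for them. Of the 67 pathway genes, 58 (86.6%) were overlapped by H4K5ac and 54 (80.6%) by H4K8ac regions. Of all 19971 protein-coding genes, 53.3% and 58.1% were. The pathway counts include the 5 genes described, which were taken by name from the H4K5ac table, so their H4K5ac overlap goes with that choice. Among them pod-2, pmt-2 and acl-1 were listed for H4K5ac alone, so these counts do not compare the marks on equal terms. The pathway counts were 54 and 49 when 0.5 of the gene had to be covered, beside 8563 and 9676 of all protein-coding genes. With the upper part of each list alone they were 40 and 41, beside 7522 and 8149. For the difference between marks, the 95% intervals (-0.30 to 0.12 at fasn-1, -0.13 to 0.18 at sams-1) set what these libraries can show.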

Other observations

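Marker genes of 5 tissues of the worm lay under regions of the marks to unequal degrees, beside 53.3% (H4K5ac) and 58.1% (H4K8ac) of all protein-coding genes. Since chromatin holds every gene in every cell, this does not check the tissue label. Of all genes, 29.5% were called lower for H4K5ac and 33.6% for H4K8ac, and 32.2% and 31.2% were called higher. Of 10 intestinal genes, 5 were overlapped by H4K5ac and 6 by H4K8ac regions. For H4K5ac 2 of 4 listed ones were lower, ftn-1 (-0.38) and vit-6 (-0.28), and for H4K8ac 3 of 5, from ges-1 (-0.29) to vit-6 (-0.18). The ftn-1 gene is named in each table but no listed region of either mark overlaps it. Of 8 hypodermal genes, 7 were overlapped by each mark. For H4K5ac 2 of 5 listed ones were lower, col-10 (-0.36) and elt-1 (-0.29). There dpy-7 (0.096), nhr-23 (-0.032) and nhr-25 (-0.14) were not called. For H4K8ac 1 of 3 was lower, nhr-23 (-0.16), and elt-1 (-0.071) and col-10 (-0.10) were not called. Of 8 germline genes, 8 and 7 were overlapped, with none of 2 called for H4K5ac. For H4K8ac 2 of 3 were higher, pgl-1 (0.37) and rme-2 (0.34), and glp-1 (-0.030) was not called. All 6 muscle genes were overlapped by each mark. The muscle genes unc-15 (-0.26 and -0.29) and tnt-2 (-0.23 and -0.29) were lower for H4K5ac and H4K8ac, and unc-54 (-0.073) was not called for H4K5ac. Of 6 neuronal genes, 3 and 5 were overlapped, and the 1 listed, unc-119, was not called for either mark (-0.064 and -0.017). Calls are those of edgeR at the threshold used throughout.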
